A study of Mus musculus with 5 samples.

Results

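The interferon regulatory factors (IRFs) are transcription factors that share a DNA-binding domain and bind variants of the interferon-stimulated response element. Irf1, Irf2, Irf3, Irf4, Irf5, Irf7, Irf8 and Irf9 were followed in mouse CD4 T cells. Their 9 probes, of 55681 on the array, were found through the RefSeq accession that each scanner file gives for a probe, and all 8 genes are among 21362 named genes with a value on every array. All 8 were well above background in every culture. The array carried 2 probes for Irf1 and 1 for each of the other members.

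RNA came from 5 cultures of splenic CD4 T cells that were naive at the start, from C57BL/6 mice, with 1 array for each culture and no replicates. Th1 cells had 4 days of antibodies to CD3 and CD28 together with IL-2, IL-12 and an antibody against IL-4. iTreg cells had 4 days of the same receptor antibodies with IL-2 and TGF-b, and antibodies that neutralise IFNg and IL-4. Th1+TGFb cells were Th1 cells moved for 4 further days into that iTreg medium, 8 days in all. Rested cells were Th1 cells kept for 4 further days in IL-2 and the same neutralising antibodies, for which the labels list neither receptor antibodies nor IL-12. Th1reg cells were rested cells that then spent 4 days in the iTreg medium, 12 days in all. The labels do not say how many mice or wells each array stands for. With 1 array a culture no test could be made, and every difference below is between single arrays.

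The members work at different points of the interferon and antigen-receptor pathways. IRF3 and IRF7 are activated by kinases downstream of nucleic acid sensors and switch on the type I interferon genes, and IRF5 acts downstream of Toll-like receptors. IRF9 is the DNA-binding subunit of the complex ISGF3, which carries the type I interferon signal to its target genes. IRF1 is induced by IFN-gamma, and IRF2 competes with it for the same DNA sites. IRF4 is induced by the T cell receptor and works with BATF and JUN proteins in activated T cells. IRF8 is best known in B cells and myeloid cells, and is also made in activated T cells.

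The promoters of the members differ in the motif letters they hold. The RefSeq promoter table (GRCm38.p6) held a window for each of the 8 genes, and the 250 bases before each start were searched on both strands for 4 motifs. These were the STAT site GAS (TTCNNNGAA), the interferon response element ISRE (GAAA, 2 bases of any kind, GAAA), the ETS-IRF composite EICE (GGAA, 2 bases of any kind, GAAA) and the AP-1 site (TGANTCA). Over 32851 promoter windows, 7.02% held GAS, 2.98% ISRE, 2.30% EICE and 6.75% AP-1. GAS letters were found before the first listed starts of Irf1 (1 match) and Irf8 (2 matches) and before the start of Irf2 (1 match). Irf2 also held 1 ISRE and 1 EICE match, which overlap each other. No letters of the 4 motifs were found before the starts of Irf3, Irf4, Irf5, Irf7 and Irf9. The stretches of Irf8 and Irf4 are shown because these members had the widest ranges over the cultures, and those of Irf1 and Irf2 because they hold the other matches. Capitals mark GAS letters, and in Irf2 also ISRE and EICE letters. All 4 lie on the plus strand of GRCm38.p6, at chr8:120736158-120736257 for Irf8, chr13:30749133-30749232 for Irf4, chr11:53769864-53769963 for Irf1 and chr8:46739495-46739544 for Irf2.
Irf8: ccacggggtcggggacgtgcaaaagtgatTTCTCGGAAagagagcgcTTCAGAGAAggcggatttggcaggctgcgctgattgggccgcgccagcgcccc
Irf4: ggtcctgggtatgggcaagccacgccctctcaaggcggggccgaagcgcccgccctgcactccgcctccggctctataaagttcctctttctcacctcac
Irf1: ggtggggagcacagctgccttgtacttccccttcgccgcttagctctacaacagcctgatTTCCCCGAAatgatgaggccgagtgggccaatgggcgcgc
Irf2: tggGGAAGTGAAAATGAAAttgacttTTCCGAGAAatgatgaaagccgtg
A match in these windows is a description and not a measured binding site.

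Levels below are scaled log2 levels: log2 of the processed signal minus log2 of the 75th percentile of signal on that array, which ran from 144 (rested) to 306 (Th1reg). Between 45.7% and 48.7% of spots were well above background. A gene is called apart when 2 arrays differ by at least 2-fold, a log2 difference of 1. Repeat spots of 1 probe on an array had a median SD of 0.051 to 0.061 log2 units at signals of 100 or more, and of 0.17 to 0.20 below that. The scanner software's own error was 10% to 14.9% of the signal for the probes used. Both describe the array only and hold nothing of the variation between cultures, so the number of arrays limits the precision.

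The T cell label held against its markers, with 9 of 9 T cell genes well above background in every culture and a summed scaled signal of 841 (iTreg) to 1890 (Th1+TGFb). Markers of cells in which IRF5 and IRF8 are also made were mostly dim. Of 8 B cell markers 4 to 5 were well above background, with a summed signal of 1.28 (Th1reg) to 5.93 (rested), and Cd79a and Pax5 were not well above background in any culture. Of 8 myeloid markers 2 to 4 were, with a sum of 49.3 (Th1reg) to 460.3 (rested) that came almost wholly from Itgam, while Lyz2, S100a8, S100a9 and Fcgr1 were not in any. Of 6 dendritic cell markers 1 to 3 were, with a sum of 194.9 (Th1reg) to 698 (rested) that came almost wholly from Siglech, while Flt3, Clec9a and Xcr1 were not in any. Of 5 CD8 T and NK markers 2 to 3 were (sum 0.526 to 1.79, with Ncr1 and Klrb1c dim throughout), and of 3 erythroid markers none was except 1 in iTreg (sum 0.243). In bulk RNA, fewer cells of a type and less RNA per cell cannot be told apart.

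The members fell into wide and narrow ranges over the cultures. Among 10710 genes well above background on all 5 arrays the median range from the lowest to the highest culture was 1.29 log2 units, and 90% of genes stayed within 2.90. Irf8 (6.07), Irf4 (4.84) and Irf7 (3.60) went past that limit, Irf5 (2.09) lay between, and Irf9 (1.21), Irf2 (1.09), Irf1 (0.79) and Irf3 (0.49) lay under the median. The ranges and the limit are those of the main scaling and were not computed under other ways of processing.

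**Figure D1:**
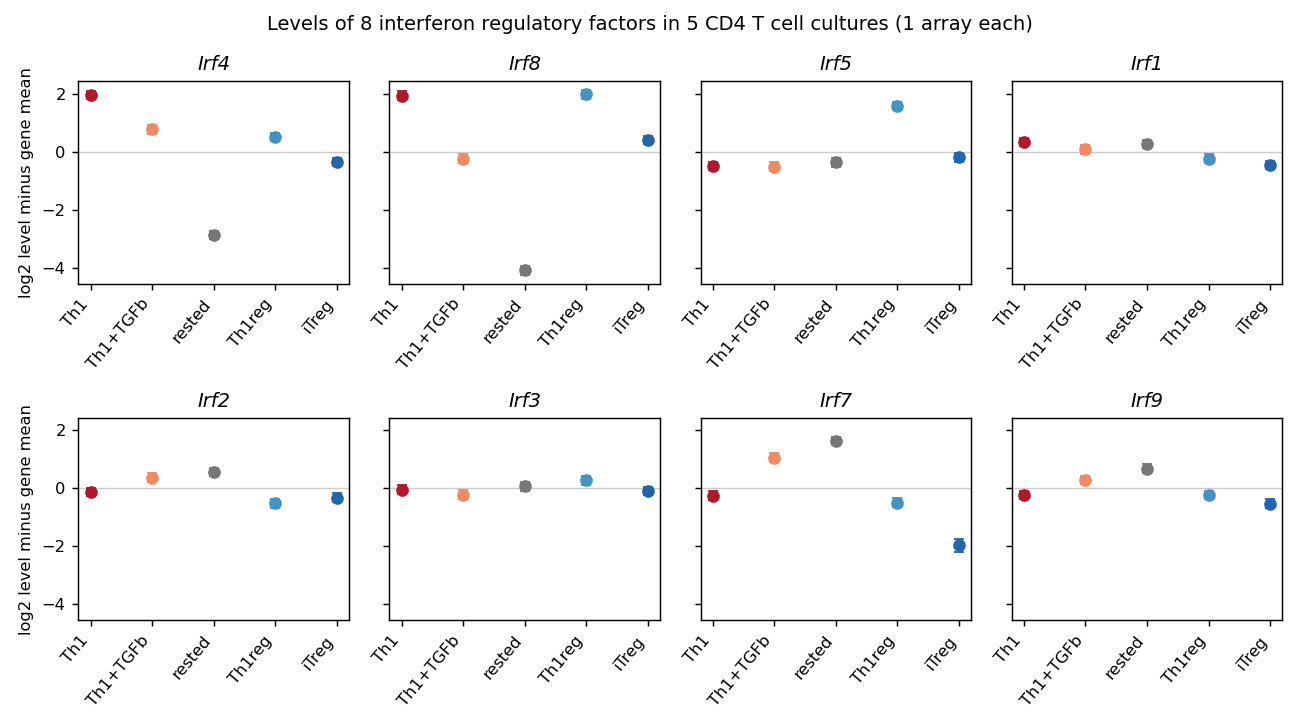
Scaled log2 level of each member in the 5 cultures after subtracting the gene's mean over the 5 arrays (y axis, log2 units), 1 point for each array, with the scanner software's error as bars. Irf4 and Irf8 are lowest in rested cells, Irf5 is highest in Th1reg and Irf7 lowest in iTreg, while Irf1 and Irf3 stay within 0.79 and 0.49 log2 units.

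Irf4 and Irf8 were high in all 4 cultures given receptor antibodies in their last step and far lower in rested cells. Irf4 had a level of 6.93 in Th1 cells, 5.73 in Th1+TGFb cells, 2.08 after rest, 5.46 in Th1reg cells and 4.60 in iTreg cells. Th1 was highest and rested lowest by a wide margin, and iTreg was the lowest of the 4 cultures given receptor antibodies in their last step. The order of Th1+TGFb and Th1reg is not settled, since spike-in scaling turned it. Irf8 had a level of 6.94 in Th1 cells, 4.77 in Th1+TGFb cells, 0.91 after rest, 6.98 in Th1reg cells and 5.41 in iTreg cells. Th1 and Th1reg could not be ordered, being 0.04 log2 units apart where the technical SD of a difference was 0.076 (0.35 apart with spike-in scaling), and rested was again far below the rest. Before scaling, the processed signal of Irf8 was 38610 in Th1reg and 270.8 in rested, and that of Irf4 was 29092 in Th1 and 610.9 in rested.

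Irf5 and Irf7 each had a pattern of its own. Irf5 had a level of 0.87 in Th1 cells, 0.85 in Th1+TGFb cells, 0.99 after rest, 2.93 in Th1reg cells and 1.16 in iTreg cells. Th1reg stood alone above the other 4 cultures, among which iTreg was slightly higher and the order of rested, Th1 and Th1+TGFb changed with the scaling. Irf7 had a level of -0.97 in Th1 cells, 0.34 in Th1+TGFb cells, 0.91 after rest, -1.21 in Th1reg cells and -2.69 in iTreg cells. Its high cultures were rested and Th1+TGFb, whose own order spike-in scaling turned, and its low culture was iTreg, with a processed signal of 42.1 where the lowest signal well above background was 21.3. Spike-in scaling also turned the order of Th1 and Th1reg.

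**Figure D2:**
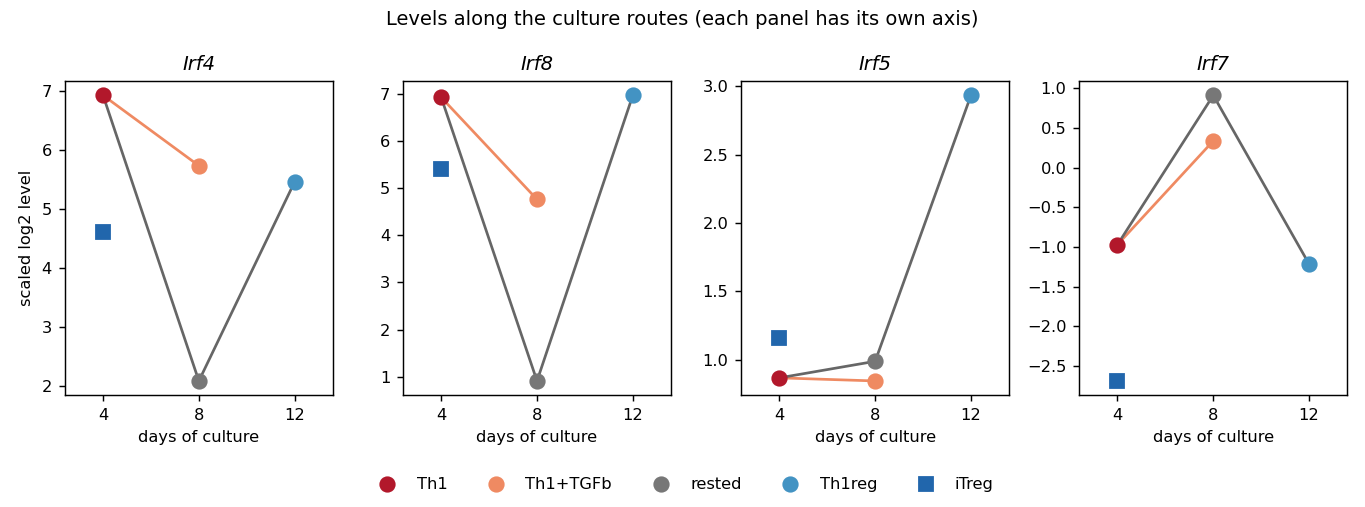
Scaled log2 levels (y axis, a separate scale in each panel) of the 4 members with the widest ranges against days of culture (x axis). Lines join each culture to the one it was made from, and the square is iTreg, which came from naive cells by another route. Irf4 and Irf8 stand at 2.08 and 0.91 at rest and at 5.46 and 6.98 in Th1reg, and Irf7 runs the other way.

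Irf1, Irf3, Irf2 and Irf9 varied least over the cultures. Irf1 had a level of 6.42 in Th1 cells, 6.16 in Th1+TGFb cells, 6.35 after rest, 5.84 in Th1reg cells and 5.62 in iTreg cells. No pair of neighbours in that order held under every scaling. Irf3 was flatter still, from 5.59 (Th1+TGFb) to 6.08 (Th1reg), and no neighbours could be ordered. Irf2 had a level of 0.92 in Th1 cells, 1.42 in Th1+TGFb cells, 1.62 after rest, 0.52 in Th1reg cells and 0.73 in iTreg cells. Irf9 had a level of 3.54 in Th1 cells, 4.06 in Th1+TGFb cells, 4.46 after rest, 3.54 in Th1reg cells and 3.25 in iTreg cells. In the main scaling both genes were highest in rested and next in Th1+TGFb. The lowest culture was Th1reg for Irf2 and iTreg for Irf9. Rested was the highest culture for both genes only without spike-in scaling, which put it below Th1+TGFb, below Th1 (-0.46 for Irf2 and -0.24 for Irf9) and below Th1reg. Before scaling, the processed signals of Irf2 ran only from 440.4 to 530.5 and those of Irf9 from 2574 to 3572, with rested the highest of neither.

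Naive cells taken through the iTreg or the Th1 culture differed in 3 of 8 members, all lower in iTreg, where 28.6% of 13152 genes were apart, 17.8% lower and 10.8% higher. Irf4 was 5.01-fold lower in iTreg (log2 difference -2.33), Irf7 3.29-fold (-1.72) and Irf8 2.87-fold (-1.52). These calls held under all 7 alternative ways of processing, the smallest differences being -1.95, -1.04 and -1.14. Irf1 differed by -0.79, Irf9 by -0.29, Irf2 by -0.19 and Irf3 by -0.05, and Irf5 by 0.29 in the other direction. The median of the 8 was -0.54 beside -0.24 for all genes. T cell markers were also lower in iTreg, 6 of 9 by at least 2-fold (median -1.29). Their part in the IRF differences was not tested.

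The largest differences of the members all involved rested cells. Relative to Th1, 2 members were lower and 1 higher after rest, where 44.2% of 13229 genes were apart, 26.7% lower and 17.5% higher. Irf8 was 65.3-fold lower (log2 difference -6.03) and Irf4 28.7-fold lower (-4.84), and 0.219% and 0.574% of all genes were at least that far apart in either direction. Irf7 was 3.68-fold higher (1.88), which spike-in scaling reduced to 0.72. Irf9 differed by 0.92, Irf2 by 0.70, Irf5 by 0.12, Irf3 by 0.11 and Irf1 by -0.06. The loss of receptor antibodies, the loss of IL-12, the addition of an IFNg block and 4 further days came together in this comparison and cannot be told apart. Summed marker signals were higher in rested than in Th1, by 4.07-fold for B cells, 4.97-fold for myeloid cells and 2.71-fold for dendritic cells. With spike-in scaling these ratios were 1.82, 2.22 and 1.21, and the myeloid and dendritic sums each rest almost wholly on 1 probe. The part of such cells in the IRF differences was not tested.

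Th1 cells moved straight into the iTreg medium showed the same 3 members apart from Th1, 2 lower and 1 higher, where 19.1% of 13054 genes were apart, 7.81% lower and 11.3% higher. Irf8 was 4.50-fold lower in Th1+TGFb (log2 difference -2.17), Irf4 2.29-fold lower (-1.19) and Irf7 2.48-fold higher (1.31). The call of Irf8 held under all alternatives. That of Irf4 ended with the 75th percentile of detected probes (-0.95), and that of Irf7 ended under spike-in scaling and normexp, at 0.94 in both. Irf9 (0.52), Irf2 (0.50), Irf1 (-0.25), Irf3 (-0.17) and Irf5 (-0.02) stayed within 2-fold. The loss of IL-12, the addition of TGF-b and an IFNg block, and 4 further days came together here and cannot be told apart.

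Entered from rest, the same medium went with 2-fold differences in the opposite direction for Irf8, Irf4 and Irf7. Receptor antibodies, TGF-b and 4 further days came together in this comparison and cannot be told apart. Th1reg had 3 members higher and 2 lower than rested cells, where 47.7% of 13331 genes were apart, 27.7% higher and 20.0% lower. Irf8 was 67.2-fold higher in Th1reg (log2 difference 6.07), with 0.278% of genes at least that far apart. Irf4 was 10.4-fold higher (3.38) and Irf5 3.85-fold higher (1.94), and these 3 calls held under all alternatives. Irf7 was 4.37-fold lower (-2.13), which spike-in scaling reduced to -0.66, and Irf2 was 2.13-fold lower (-1.09), which normexp reduced to -0.75 and spike-in scaling turned to 0.38. Irf9 differed by -0.91, Irf1 by -0.51 and Irf3 by 0.21. Both this comparison and the one of rested with Th1 use the rested array, so their Irf4 and Irf8 values are not separate observations. Summed B cell, myeloid and dendritic cell marker signals in Th1reg were 0.216, 0.107 and 0.279 times those of rested cells. Over the scalings they were at most 0.599, 0.297 and 0.773 times. The myeloid and dendritic sums each rest almost wholly on 1 probe. The B cell sums cover 5 markers in rested and 4 in Th1reg. The part of such cells in the Irf5 and Irf8 differences was not tested.

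**Figure D3:**
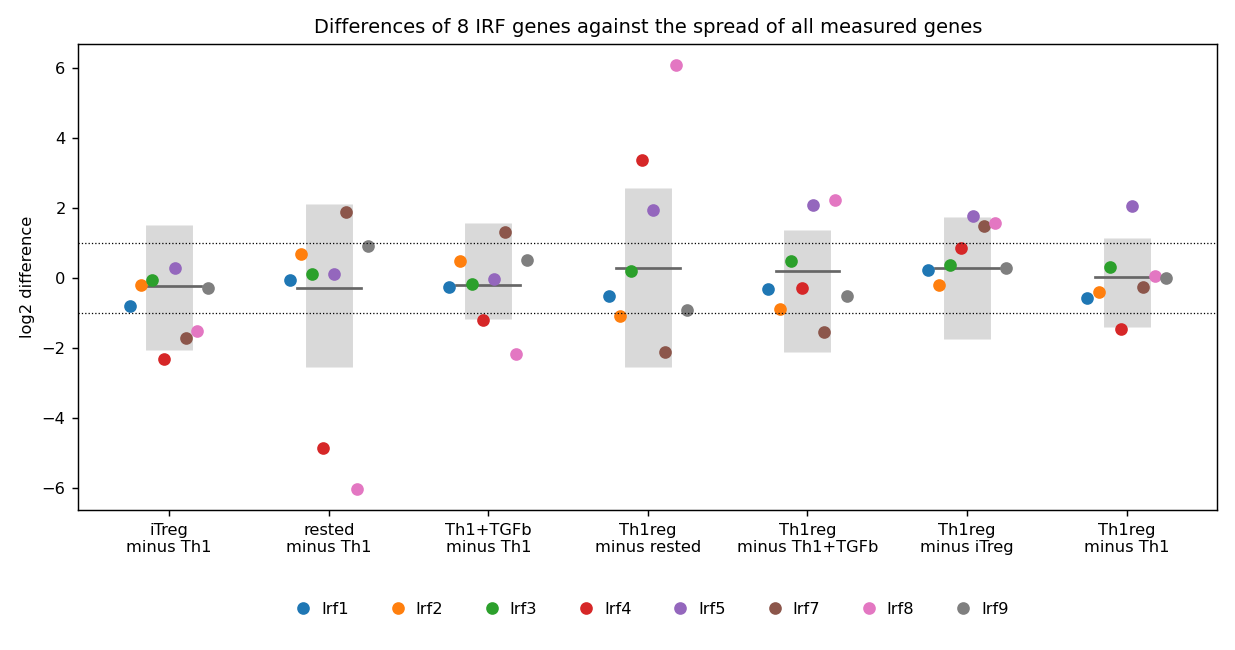
Log2 difference of each member (points, y axis) in the 7 comparisons (x axis), with the grey bar spanning the 5th to the 95th percentile of all measured genes, the grey line their median and dotted lines at 2-fold. Irf8 and Irf4 lie beyond the bar in rested against Th1 and in Th1reg against rested, and Irf5 lies above it in Th1reg against Th1+TGFb, iTreg and Th1. Irf4 also lies below it in iTreg, Th1+TGFb and Th1reg against Th1, in the last 2 by little. Irf8 also lies below it in Th1+TGFb against Th1 and above it in Th1reg against Th1+TGFb.

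Th1reg and Th1+TGFb both ended in the iTreg medium, and differed in the rest between and in 4 days of culture. Here 3 of 8 members were apart, 2 higher and 1 lower in Th1reg, where 27.5% of 13212 genes were apart, 12.4% higher and 15.1% lower. Irf8 was 4.63-fold higher in Th1reg (log2 difference 2.21) and Irf5 4.25-fold higher (2.09), both under all alternatives, and Irf7 was 2.93-fold lower (-1.55), or -0.88 with spike-ins. Irf4 differed by only -0.27, a sign that spike-in scaling turned. Irf2 (-0.89), Irf9 (-0.52), Irf3 (0.49) and Irf1 (-0.32) stayed within 2-fold.

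Against iTreg, which reached the same medium from naive cells, Th1reg had 3 members higher and none lower, where 28.0% of 13184 genes were apart, 15.8% higher and 12.1% lower. Irf5 was 3.42-fold higher in Th1reg (log2 difference 1.77), Irf8 2.96-fold (1.56) and Irf7 2.77-fold (1.47). The call of Irf7 ended under normexp (0.88) and the others held under all alternatives. Irf4 differed by 0.86, Irf3 by 0.37, Irf9 by 0.30, Irf1 by 0.22 and Irf2 by -0.20. T cell markers were also higher in Th1reg than in iTreg, 3 of 9 by at least 2-fold (median 0.91 beside 0.28 for all genes). Of 5 measured B cell markers 3 were lower and 1 higher. The part of these markers in the IRF differences was not tested. Against the original Th1 cells, Th1reg had 1 member higher and 1 lower, where 14.9% of 12867 genes were apart, 6.28% higher and 8.57% lower. Irf5 was 4.19-fold higher (2.07) and Irf4 2.76-fold lower (-1.47), both under all alternatives, while Irf8 (0.04) and Irf9 (0.01) stayed close to Th1. The comparisons that use Th1reg or Th1 share those arrays and are not independent of each other.

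**Figure D4:**
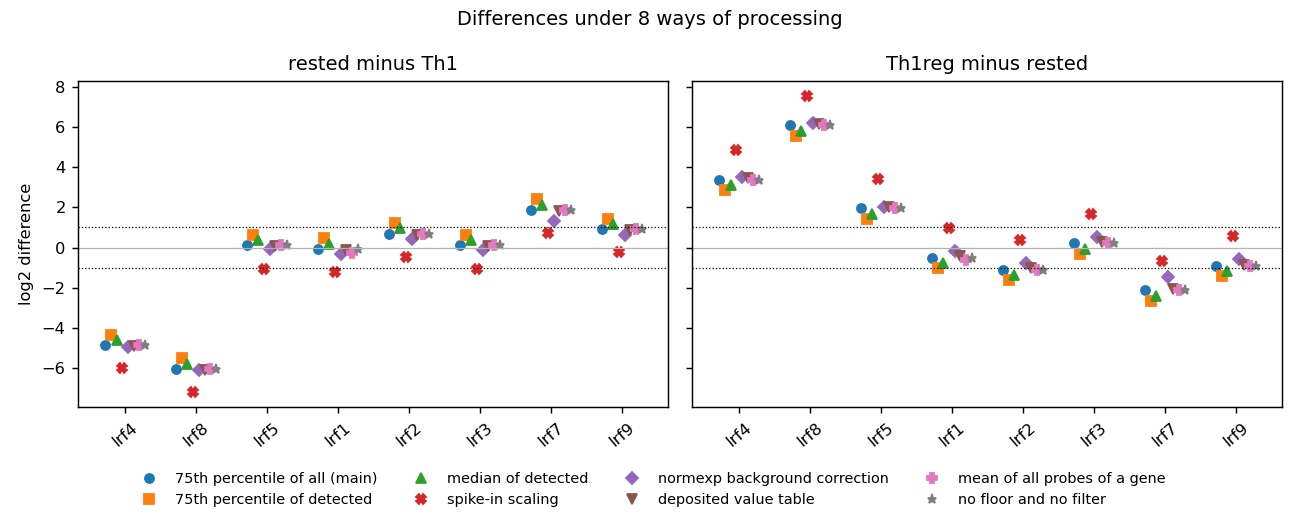
Log2 difference (y axis) of each member (x axis) in rested against Th1 and in Th1reg against rested, 1 symbol for each of the 8 ways of processing, with dotted lines at 2-fold. Irf8 and Irf4 stay far from 0 on the same side throughout, whereas spike-in scaling carries Irf9 and Irf2 across 0 in both comparisons.

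The genes around the IRFs were described with 6 lists. Their counts stand beside 10.8% of all genes higher and 17.8% lower in iTreg against Th1, 17.5% and 26.7% in rested against Th1, and 27.7% and 20.0% in Th1reg against rested. Folds of single list genes are those of the main scaling. Spike-in scaling moved all genes by -1.16 log2 units in rested against Th1 and by 1.47 in Th1reg against rested. Single differences near or under those sizes depend on the scaling, among them Ifnar1 (1.195) and Jak1 (1.158) in rested and Ddx58 (-1.30) in Th1reg. Of the 9 interferon receptor and relay genes, 3 were at least 2-fold higher in rested than in Th1 cells and none lower (median 0.85 beside -0.29 for all genes, turned by spike-in scaling). Ifngr1, the ligand-binding chain of the IFN-gamma receptor, stood at 5.07 in Th1, 7.16 in rested and 4.10 in iTreg. Ifngr2, its signalling chain, ran the other way in iTreg, at 0.17 in Th1 and 2.47 in iTreg, a 4.91-fold difference. Ifnar1, a chain of the type I interferon receptor, was 2.57-fold higher in iTreg and 2.29-fold higher in rested than in Th1, and the kinase gene Jak1 was 2.23-fold higher in rested. In Th1reg against rested 3 of the 9 were lower and none higher (median -0.40, turned by spike-in scaling), while in Th1reg against Th1 none was apart.

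Sensors and kinases that activate IRF3, IRF5 and IRF7 were mixed. Of 15 measured, 3 were higher and 3 lower in iTreg than in Th1, and 1 was higher and 3 lower in rested than in Th1. The rested count lies below the 44.2% of all genes apart. Both medians lay within 0.01 of 0, beside -0.24 and -0.29 for all genes, and changed sign with the processing. The RNA sensor gene Ifih1 was 2.33-fold higher in Th1+TGFb than in Th1 and 2.04-fold lower in iTreg. Traf6, an adaptor of Toll-like receptor signalling, was 2.45-fold higher in Th1reg than in rested, and Ddx58, which encodes the sensor RIG-I, was 2.46-fold lower. Tlr7, an endosomal RNA receptor, was 2.60-fold higher in Th1+TGFb than in Th1.

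The partners of IRF4 and IRF8 on DNA had a spread of their own. Batf3, an AP-1 family partner, had a level of 6.27 in Th1 cells, 6.70 in Th1+TGFb cells, 2.60 after rest, 5.77 in Th1reg cells and -1.23 in iTreg cells, so that it was lower than in Th1 by 180.4-fold in iTreg and by 12.7-fold in rested. Batf itself of the same family was lower by 5.54-fold in iTreg, and Junb was 4.72-fold lower in rested, with a log2 difference of -2.32 in iTreg. Ikzf3, which encodes the zinc finger factor Aiolos, went the other way, 3.34-fold higher in iTreg than in Th1. Its level in Th1 (-3.15) lay close to the lowest level well above background there (-3.66). Over the list of partners and IRF2 co-repressors, 3 of 13 measured genes were higher and 3 lower in iTreg than in Th1, and 1 of 12 was higher and 2 lower in rested. The rested count is again under the share of all genes. Spi1, the ETS partner of IRF4 and IRF8 in B cells and myeloid cells, was not well above background in any culture, and the related Spib was so only in iTreg.

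The listed type I interferon targets include antiviral enzymes and feedback regulators. Of 18 measured in rested against Th1, 9 were higher and 3 lower (median 1.13 beside -0.29, or 0.09 with spike-in scaling). In Th1reg against rested none was higher and 13 lower (median -1.66 beside 0.29, or -0.19 with spike-in scaling). In iTreg against Th1, 2 of 17 were higher and 7 lower (median -0.76 beside -0.24). Rtp4, an interferon-induced gene, stood at -2.88 in Th1 and 3.54 in rested, 85.6-fold higher, but Usp18, a negative regulator of the type I receptor, was lower than in Th1 by 6.58-fold in rested and 65.2-fold in iTreg. Oas3, an antiviral enzyme gene, differed by -4.67 log2 units between iTreg and Th1. Oasl1, of the same family, was at least 17.4-fold lower there. Rtp4 in Th1 and Oas3 in iTreg (-3.24) lay close to the lowest level well above background, -3.66 and -3.67 on those arrays. Their folds are thus less certain.

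Of 20 IFN-gamma targets, 9 were below Th1 in iTreg and 0 above it (median -0.87 beside -0.24 for all genes), while Irf1 differed by -0.79. Il12rb1, a chain of the IL-12 receptor, was lower than in Th1 by 27.7-fold in iTreg, with a log2 difference of -3.43 in rested. Gbp2, an interferon-induced GTPase, was lower than in Th1 by 7.50-fold in iTreg, 7.01-fold in rested and 8.50-fold in Th1reg. The inflammatory caspase gene Casp1 went the other way at rest, 3.73-fold higher than in Th1. The chemokine gene Cxcl10 was at least 15.1-fold lower in rested than in Th1.

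Of 17 measured genes linked to IRF4 in activated T cells, 13 were lower and 2 higher in rested than in Th1 (median -1.76 beside -0.29). They were higher in Th1reg than in rested in 9 of 16 and lower in 3 (median 1.28 beside 0.29). Tnfrsf9, the costimulatory receptor 4-1BB, had a level of 5.72 in Th1 cells, 5.29 in Th1+TGFb cells, -1.45 after rest, 4.60 in Th1reg cells and 1.63 in iTreg cells. The inhibitory receptor gene Lag3 lay 57.8-fold below Th1 in rested, and Th1reg lay 5.18-fold above rested. Ccr8, a chemokine receptor gene, did not share the high level of Irf4 in Th1, standing at -1.62 there, 2.11 in iTreg and 2.72 in Th1reg. Il21, a cytokine gene, was at least 347-fold lower in rested than in Th1, and remained at -3.02 in Th1reg. In iTreg against Th1, 10 of 17 were lower and 4 higher (median -2.15). The list did not follow Irf4 everywhere. Th1+TGFb had Irf4 lower than Th1 (-1.19), but 5 of 17 listed genes were higher and 2 lower. Their median was 0.36 beside -0.20, and 11.3% of all genes were higher and 7.81% lower. Against Th1+TGFb, Th1reg had 2 of 18 higher and 7 lower, beside 12.4% and 15.1% of all genes. The median was -0.60 beside 0.20, while Irf4 differed by -0.27. Spike-in scaling turned both medians.

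**Figure D5:**
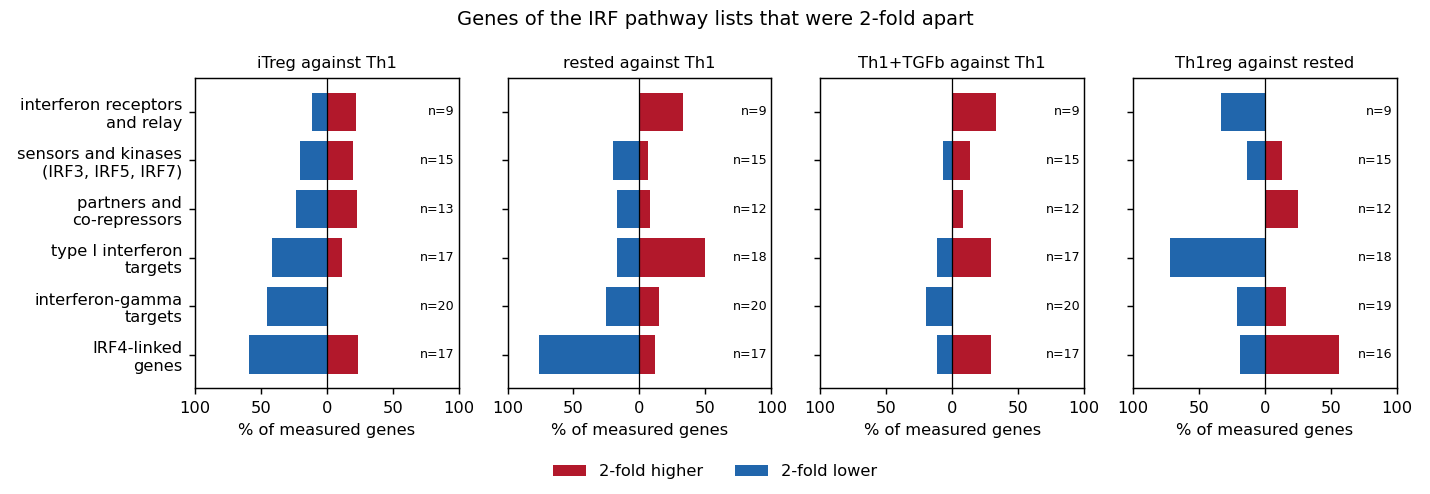
Share of the measured genes of each of 6 lists (rows, n given at the right) that were at least 2-fold higher (red, to the right) or lower (blue, to the left), as a percentage on the x axis, in 4 comparisons. The IRF4-linked genes are mostly lower in rested (13 of 17) and the type I interferon targets mostly lower in Th1reg against rested (13 of 18).

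Genes with the most similar profiles over the 5 arrays were taken from 10230 genes well above background on all of them, a number that leaves out predicted and clone-named genes, by the root mean square (RMS) difference between levels centred on each gene's mean. For Irf4 these were Rfc3, a subunit of the replication clamp loader (RMS 0.18 log2 units), Tnfrsf4, the costimulatory receptor OX40 (0.22), and Zfp473 (0.27). For Irf8 they were Hbegf, a growth factor of the EGF family (0.40), Mnd1 (0.54) and the kinetochore gene Nsl1 (0.54). The RMS was not divided by the range of a gene, so its size cannot be compared between members with different ranges. Irf5 was closest to Sh3bgrl (0.16), Zfp944 (0.25) and the zinc transporter gene Slc39a6 (0.29). Irf7 was closest to Pglyrp1, which encodes a peptidoglycan-binding protein (0.14), Gpr183, an oxysterol receptor that guides migration (0.28), and Glipr1 (0.32). The neighbours of Irf3 were Cmc4, Bahd1 and Rnf187, at 0.03 to 0.04, and those of Irf1, Irf2 and Irf9 lay within 0.05 to 0.08.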

How the data were processed

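The scanner output of 5 arrays was used. Per the file headers and the submitters' processing notes, Agilent Feature Extraction 10.7.1.1 made the processed signal, a linear intensity with background subtracted and spatial trend removed on each array. In the deposited value table, also an intensity, 99.7% to 99.8% of values lay within 0.01 log2 units of that signal over 1 constant per array, so its scale and direction are known and its genes are not centred. The choice of constant by the authors was not stated.

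Control spots and 109 to 142 outlier spots per array were left out, and no spot was saturated. Signals were averaged over spots and scaled by the 75th percentile over spots. Accessions matched 28325 of 55681 probes in the RefSeq table of GRCm38.p6. The array design names mm9, so that table gave names only. For 5748 genes with several probes, the probe with the highest mean signal was used. Signals not well above background were raised to the lowest signal well above background on that array, which makes the difference a bound, written "at least". A gene dim on both arrays of a comparison was dropped from it.

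Alternatives were 2 scalings by detected probes, scaling by 8 spike-in probes, normexp (limma 3.58.1, offset 50), the deposited table, the mean of all probes and no floor. The files hold no mean signal column, so normexp used the median signal. Named list genes were up to 4 per list with the widest range among those well above background on at least 3 arrays. The most similar 3 genes were taken per member. Members, lists and motifs were chosen with earlier results of these data known. Values were computed with Python 3.11.15 and pandas 2.3.3. List genes with no matched probe were Mx1 and Mx2. Probe sequences and protein sequences were not used here.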

Additional observations from a re-analysis of the deposited data

Results flagged for a closer look

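For 3 members the iTreg medium went with a 2-fold difference in 1 direction when entered straight from Th1 and in the opposite direction when entered after rest. Irf8 was 2.17 log2 units lower than its precursor in the first case (-2.17) and 6.07 higher in the second, a gap of 8.24. Irf4 differed by -1.19 and 3.38, a gap of 4.57. Irf7 differed by 1.31 and -2.13, a gap of -3.43. Over the 7 alternatives these gaps ran from 7.48 to 10.07, from 3.82 to 6.41 and from -4.19 to -1.60. Of 12585 genes measured in both comparisons, 1504 (12%) were likewise 2-fold apart in opposite directions. That share was 6.08% with normexp and 22% with spike-in scaling, each with 2 members. Irf8 kept both calls under all scalings and normexp. Irf7 was 2-fold in neither comparison with spike-in scaling (0.94 and -0.66), and its direct difference also fell short with normexp (0.94). Irf4 fell short with the 75th percentile of detected probes (-0.95). The difference between the routes was not tested, since each culture had 1 array, and the precursors already differed in all 3 genes.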

How the results depend on the processing

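Of 56 member differences, 22 were 2-fold; 15 stayed so in the same direction under all 7 alternatives and 7 did not, while 10 others became 2-fold under at least 1. In rested against Th1, the members apart went from 3 to 5 with the 75th percentile of detected probes (Irf2 and Irf9 added, both higher) and to 5 with spike-in scaling (Irf1, Irf3 and Irf5 added, all lower, Irf7 lost). Spike-in scaling turned Irf2 in Th1reg against rested to 0.38. Causes were not tested. Spike-in scaling moved all genes by -1.16 log2 units in rested against Th1 and by 1.47 in Th1reg against rested. Of all genes apart, the share higher in rested than Th1 was 39.6%, between 6.52% (spike-ins) and 65.3% (75th percentile of detected probes). In the same way it was 58.0% (36.5% to 92.9%) for Th1reg against rested, 37.8% (25.8% to 64.5%) for iTreg against Th1, 59.2% (24.4% to 78.5%) for Th1+TGFb against Th1, 45.0% (27.6% to 84.2%) for Th1reg against Th1+TGFb, 56.6% (31.1% to 73.2%) against iTreg and 42.3% (39.5% to 65.6%) against Th1. No paired analysis was possible because each culture had 1 array, and no replicate could be left out.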

Other observations

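The second Irf1 probe, for another RefSeq transcript, was well above background only in Th1, with a processed signal of 35.9, and gave 4.19 to 24.5 in the other cultures. Averaging it with the brighter probe, after its dim values were raised to the floor, left Irf1 within 2-fold in all 7 comparisons. The floor limits how far that average could move, and an average without it was not computed. Irf2bp2, an IRF2 co-repressor gene that was chosen after its values were seen, had a level of 4.64 in Th1 cells, 5.80 in Th1+TGFb cells, 5.38 after rest, 6.13 in Th1reg cells and 4.99 in iTreg cells.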
